A study of Mus musculus with 9 samples.

Results

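The 10 genes described here encode elastin (Eln), fibrillin-1 (Fbn1), the microfibril-associated proteins Mfap2, Mfap4 and Mfap5, fibulins 1, 2, 4 and 5 (Fbln1, Fbln2, Efemp2 and Fbln5) and lysyl oxidase (Lox). They were found by symbol among the 19058 genes of the deposited expression table, and all 10 were present. The genes were chosen by family, with the FPKM values of these 9 libraries and their differences between groups in view, so the levels and differences of the 10 genes in all 3 groups are given as a description, with no p-value.

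Elastic fibres let connective tissue stretch and recoil. Their core is cross-linked elastin, laid on a scaffold of microfibrils built from fibrillin. Microfibril-associated glycoproteins bind the fibrillin, fibulins bring elastin and its cross-linking enzyme to the scaffold, and lysyl oxidase joins the elastin chains through their lysines. In the testis, elastic fibres and microfibrils lie in the wall of the seminiferous tubule and around vessels, and stromal and smooth muscle cells make most of them.

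RNA sequencing was done on mouse primary Leydig cells, the interstitial cells of the testis that make testosterone, isolated from wild-type testis (labelled WT). The groups were 3 libraries of cells treated with TPhP (triphenyl phosphate, an organophosphate flame retardant and plasticiser), 3 of cells treated with DPhP (diphenyl phosphate, its metabolite, which lacks 1 of the phenyl esters) and 3 of control cells (labelled Control). The labels state neither dose nor exposure time, nor vehicle, strain or age. They do not say that libraries of a group came from separate animals or cultures either. The p-values below therefore reflect library-to-library spread alone, and that spread may be technical.

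Levels are FPKM, read fragments scaled by transcript length and library size. The sum of FPKM was 419107 to 422363 in TPhP, 398680 to 401930 in DPhP and 421963 to 428928 in control libraries. Libraries of the same group correlated at Pearson r of 0.9964 to 0.9975 across tested genes, and libraries of different groups at 0.953 to 0.996. Summed over 8 Leydig cell markers, the level was 1759 to 1828 FPKM in TPhP, 328 to 343 FPKM in DPhP and 1670 to 1785 FPKM in control libraries. Tests against control were made in limma on log2(FPKM + 1) and called at an adjusted p under 0.05. Of the 6 Leydig cell markers that could be tested, 5 fell with DPhP, where 37.9% of all tested genes were called lower, and none passed with TPhP, where 3.64% were called lower and 2.58% higher. Insl3, which encodes a hormone of mature Leydig cells, averaged 543 FPKM in TPhP, 11.3 FPKM in DPhP and 537 FPKM in control libraries. The log2 differences of the 5 with DPhP ran from -5.45 for Insl3 to -0.53 for Nr5a1. Star was the tested marker not called with DPhP, at 35.9, 31.1 and 31.7 FPKM in TPhP, DPhP and control libraries. Of the markers, Cyp17a1 and Hsd17b3, which encode late enzymes of testosterone synthesis, were at or near 0 in all 3 groups. These are bulk libraries, so fewer cells of a type and less RNA per cell cannot be told apart.

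The genes lie on 9 chromosomes, with Mfap5 and Fbln2 on the same one, and differ widely in structure. Fbn1 (chromosome 2, 125300594 to 125506485 in GRCm38.p6) has 8619 coding bases in 65 exons of its longest coding transcript. Eln (chromosome 5, 134702595 to 134747368) has 2580 coding bases in 37 exons. Mfap5 (chromosome 6, 122513584 to 122529290) and Mfap2 (chromosome 4, 141010424 to 141015976) have 492 and 555 coding bases. The remaining genes are Mfap4 on chromosome 11 (61485431 to 61488708), Fbln1 on chromosome 15 (85205949 to 85286294), Fbln2 on chromosome 6 (91212460 to 91272540), Fbln5 on chromosome 12 (101746565 to 101819119), Efemp2 on chromosome 19 (5473946 to 5482520) and Lox on chromosome 18 (52516060 to 52529867).

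None of the 75-base stretches of the 10 genes' protein-coding transcripts occurred in the same orientation in a transcript of another gene (GENCODE M21, GRCm38). No stretch of that length is therefore shared in that orientation with a paralog. Reverse complements were not searched. Exons of Mapk7 overlap Mfap4 and exons of Mus81 overlap Efemp2, in both cases on the opposite strand, and it is not given whether counting used the strand. Mapk7 was at 7.23 to 7.75 FPKM in TPhP, 8.62 to 8.89 FPKM in DPhP and 7.14 to 8.03 FPKM in control libraries. Mus81 was at 6.87 to 7.91, 5.98 to 6.82 and 7.70 to 8.22 FPKM in the same order. Eln, Fbn1 and Lox each overlap a gene model of the opposite strand as well.

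Promoter sequence from RefSeq (GRCm38.p6) was at hand for 6 of the 10 genes (Mfap2, Fbln1, Fbln2, Fbln5, Efemp2 and Fbn1), in 11 windows of 300 bases, each with 250 bases before a transcription start and 50 after it. One window is shown for each of the 3 genes among these with the largest DPhP differences, since the genes were higher together in DPhP libraries. Mfap2 is chr4:141010431-141010730 on the plus strand, Fbln1 is chr15:85205758-85206057 on the plus strand and Fbln5 is chr12:101819070-101819369 on the minus strand. Capitals mark matches on either strand to the GC box (GGGCGG), the E-box (CACGTG) or the CCAAT box (CCAAT), none of which overlap here.
Mfap2: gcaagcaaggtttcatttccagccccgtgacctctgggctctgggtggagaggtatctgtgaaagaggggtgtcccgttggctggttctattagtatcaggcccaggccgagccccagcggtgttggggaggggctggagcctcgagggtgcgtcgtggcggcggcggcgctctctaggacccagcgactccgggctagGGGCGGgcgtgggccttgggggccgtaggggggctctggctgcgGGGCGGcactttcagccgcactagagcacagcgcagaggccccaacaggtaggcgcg
Fbln1: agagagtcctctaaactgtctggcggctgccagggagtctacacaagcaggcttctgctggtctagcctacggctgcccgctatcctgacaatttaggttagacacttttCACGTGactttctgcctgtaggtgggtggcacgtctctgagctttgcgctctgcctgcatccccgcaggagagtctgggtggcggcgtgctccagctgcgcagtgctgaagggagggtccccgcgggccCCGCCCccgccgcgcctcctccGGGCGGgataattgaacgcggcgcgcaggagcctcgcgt
Fbln5: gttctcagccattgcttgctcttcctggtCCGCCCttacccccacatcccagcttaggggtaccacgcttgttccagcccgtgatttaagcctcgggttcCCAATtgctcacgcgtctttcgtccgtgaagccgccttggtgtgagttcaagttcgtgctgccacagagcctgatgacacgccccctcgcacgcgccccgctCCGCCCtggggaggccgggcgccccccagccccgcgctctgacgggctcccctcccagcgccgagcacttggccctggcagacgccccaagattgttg
The GC box was found in 8 of the 11 windows and in at least 1 window of each of the 6 genes. Mfap2, Fbln1 and Fbln5 each have 1 other window, not shown, and those are the windows without a GC box. The shown windows therefore do not stand for all windows of these 3 genes. The Mfap2 window not shown holds a CCAAT box and the only match to the TEAD motif given below. It is common: 35.7% of all 32851 windows in the table hold it, as do 62.0% of the windows of tested genes, and 68.9% of tested genes with a window have it in at least 1. The CCAAT box was found in 2 of the 11 windows (37.4% of all windows), the E-box in 2 (7.2%), both windows of Fbln1 that overlap each other, and the TEAD motif (GGAATG) in 1 (14.7%). The TATA box (TATAAA, 13.6% of all windows), the AP-1 motif (TGANTCA, 7.8%) and the CArG box (1.6%) were not found in these windows. Matches of letters were searched on both strands, and no binding was measured.

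All 10 genes were expressed in every library, and all passed the filter on low values, which asked for 1 FPKM or more in 3 or more libraries. They fell into a high and a low set. In control libraries Fbn1 (188 FPKM on average), Lox (177), Efemp2 (134) and Fbln2 (125) stood above 120 FPKM and did not overlap with each other. The other 6 lay between 5.70 and 14.09 FPKM, where the range of Mfap5 overlapped those of its neighbours Fbln1 and Fbln5, the ranges of Mfap2 and Eln overlapped, and Mfap4 was the lowest. FPKM is scaled by transcript length, but the lengths used are unknown, so levels of different genes can be compared only roughly.

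The order in TPhP libraries was the same but for Fbln5 and Mfap5, which changed places, and there the only overlapping neighbours were Fbln1 and Fbln5. In DPhP libraries Lox led with 344 FPKM, followed by Fbn1 (266), Fbln2 (198), Efemp2 (153), Mfap4 (62.0), Fbln1 (53.9), Mfap5 (50.7), Fbln5 (29.6), Mfap2 (27.9) and Eln (12.6). No neighbours in that order overlapped. Mfap4 was the lowest of the 10 genes in TPhP and control libraries and the fifth highest in DPhP libraries.

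**Figure D1:**
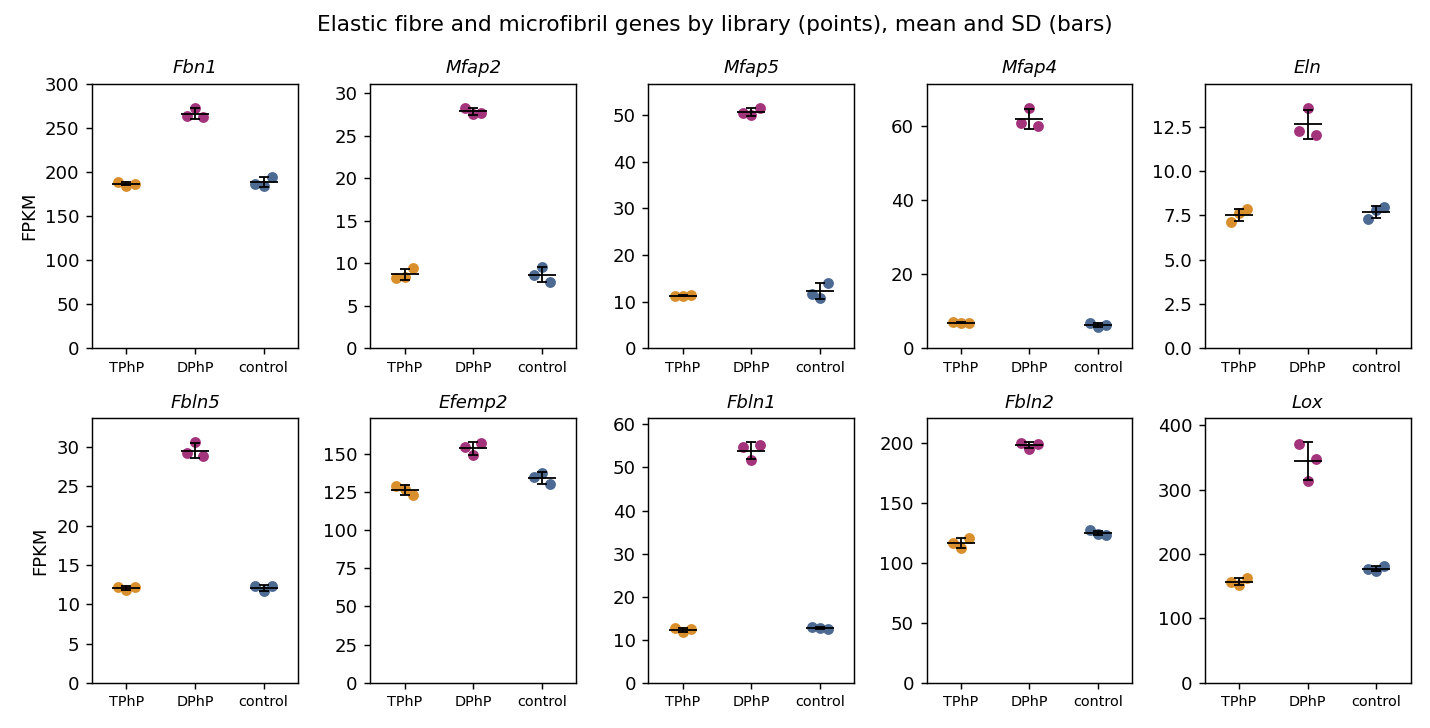
FPKM of each of the 10 genes in every library (points, linear axes from 0, one scale per panel), with the mean and SD of 3 libraries per group. The DPhP points of every gene lie above its control points, and TPhP points lie close to control points.

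Among the microfibril genes the DPhP differences were wider for the associated proteins than for fibrillin-1, and Mfap4 had the widest of all 10 genes. Mfap4 encodes a fibrinogen-related glycoprotein that binds elastin and microfibrils. It was at 7.09, 6.70 and 6.91 FPKM in TPhP libraries, 60.86, 65.04 and 60.10 FPKM in DPhP libraries and 6.69, 5.70 and 6.16 FPKM in control libraries. The DPhP libraries stood far above both other groups, and the lowest TPhP library stood just above the highest control library. The mean in DPhP libraries was 10.03 times that in control libraries, the difference in mean log2(FPKM + 1) was 3.13 (SE 0.051), and TPhP libraries differed from control by 0.14 on the same scale.

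Mfap5 encodes a small glycoprotein (MAGP-2) that binds fibrillin and carries an integrin-binding site. It was at 11.26, 11.13 and 11.36 FPKM in TPhP libraries, 50.54, 50.05 and 51.65 FPKM in DPhP libraries and 11.70, 10.83 and 14.09 FPKM in control libraries. The TPhP values lay inside the control range, while the DPhP values stood far above it (ratio of means 4.16). Its log2 difference was 1.98 (SE 0.069) for DPhP and -0.10 for TPhP against control.

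Mfap2 encodes the related glycoprotein MAGP-1, which also binds fibrillin. It was at 8.21, 8.43 and 9.43 FPKM in TPhP libraries, 28.31, 27.59 and 27.69 FPKM in DPhP libraries and 8.64, 9.56 and 7.73 FPKM in control libraries. TPhP and control ranges overlapped, and DPhP libraries were all higher, by a ratio of means of 3.22 and a log2 difference of 1.59 (SE 0.066). The log2 difference of TPhP against control was 0.01.

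Fbn1 encodes fibrillin-1, the large protein that forms the microfibril itself. It was at 187.98, 184.52 and 186.62 FPKM in TPhP libraries, 263.89, 272.88 and 261.95 FPKM in DPhP libraries and 186.39, 184.25 and 194.50 FPKM in control libraries. DPhP libraries were higher without overlap, but only by a ratio of means of 1.41 (log2 difference 0.50, SE 0.027), while TPhP lay within the control range (log2 difference -0.02).

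The proportion of microfibril-associated transcripts to fibrillin-1 transcripts differed between DPhP and the other libraries. The summed FPKM of Mfap2, Mfap4 and Mfap5 divided by that of Fbn1 was 0.144 ± 0.0039 in TPhP, 0.528 ± 0.0048 in DPhP and 0.143 ± 0.0017 in control libraries (SD, n = 3 each). The sum of all 10 genes was 645 ± 10.4 FPKM in TPhP, 1199 ± 28.1 FPKM in DPhP and 684 ± 6.32 FPKM in control libraries, which was 0.153%, 0.299% and 0.161% of the summed FPKM of all genes. Fbn1, Lox, Efemp2 and Fbln2 made up 90.9% of that sum in TPhP, 80.2% in DPhP and 91.3% in control libraries.

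**Figure D2:**
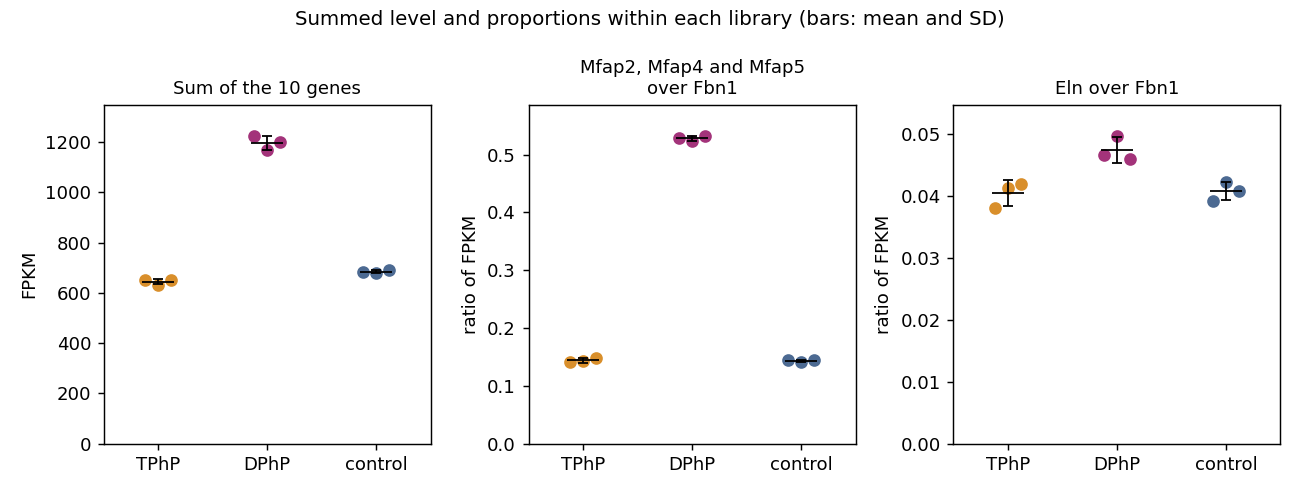
Left, summed FPKM of the 10 genes; middle, the sum of Mfap2, Mfap4 and Mfap5 divided by Fbn1; right, Eln divided by Fbn1, each per library (points) with mean and SD of 3 libraries per group. The middle ratio was 0.523 to 0.532 in DPhP and 0.142 to 0.145 in control libraries, while the ratio of Eln to Fbn1 was 0.0459 to 0.0497 in DPhP and 0.0392 to 0.0422 in control libraries.

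Eln encodes tropoelastin, the soluble monomer of the elastic core. It was at 7.14, 7.61 and 7.83 FPKM in TPhP libraries, 12.28, 13.57 and 12.02 FPKM in DPhP libraries and 7.31, 7.77 and 7.94 FPKM in control libraries. TPhP and control overlapped, and the DPhP libraries were all higher, by a ratio of means of 1.65 (log2 difference 0.65, SE 0.053). Set against Fbn1, Eln differed less than the microfibril-associated proteins did. The ratio of Eln to Fbn1 was 0.0404 ± 0.0021 in TPhP, 0.0474 ± 0.0021 in DPhP and 0.0407 ± 0.0015 in control libraries (SD, n = 3 each), with the DPhP libraries above the rest.

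Among the fibulins, Fbln1 and Fbln5 differed more than Fbln2 and Efemp2. Fbln1 encodes fibulin-1, found in elastic fibres and basement membranes. It was at 12.70, 11.84 and 12.59 FPKM in TPhP libraries, 54.76, 51.70 and 55.22 FPKM in DPhP libraries and 12.98, 12.70 and 12.50 FPKM in control libraries. DPhP libraries were all far above the others, by a ratio of means of 4.23 over control (log2 difference 2.00, SE 0.038), and TPhP overlapped control (log2 difference -0.04).

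Fbln5 encodes fibulin-5, which binds elastin and which mice need to assemble elastic fibres. It was at 12.23, 11.77 and 12.20 FPKM in TPhP libraries, 29.24, 30.59 and 28.82 FPKM in DPhP libraries and 12.27, 11.65 and 12.31 FPKM in control libraries. The TPhP range fell inside the control range, and the DPhP mean was 2.45 times the control mean (log2 difference 1.22, SE 0.037).

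Fbln2 encodes fibulin-2, an elastin- and fibrillin-binding fibulin. It was at 116.88, 112.09 and 120.37 FPKM in TPhP libraries, 199.68, 195.20 and 198.81 FPKM in DPhP libraries and 126.98, 124.29 and 123.27 FPKM in control libraries. None of the groups overlapped: DPhP libraries were above control (log2 difference 0.66, SE 0.029) and TPhP libraries below it (log2 difference -0.10, SE 0.029).

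Efemp2 encodes fibulin-4, which tethers lysyl oxidase to elastin and without which mice form no normal elastic fibres. It was at 128.75, 126.91 and 122.82 FPKM in TPhP libraries, 154.22, 149.11 and 156.91 FPKM in DPhP libraries and 134.98, 137.61 and 130.04 FPKM in control libraries. It had the smallest DPhP difference of the 10 genes (ratio of means 1.14, log2 difference 0.19, SE 0.031), still without overlap, and the TPhP libraries were all below control (log2 difference -0.09, SE 0.031). Its DPhP log2 difference was 0.32 with quantile normalization.

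Lox, the enzyme that starts cross-linking of elastin and collagen, was at 157.38, 152.20 and 162.30 FPKM in TPhP libraries, 371.74, 313.73 and 347.72 FPKM in DPhP libraries and 176.42, 173.63 and 182.08 FPKM in control libraries. The DPhP libraries were highest and also most spread, with a coefficient of variation of 8.46% against 2.43% in control libraries. Their mean was 1.94 times the control mean (log2 difference 0.95, SE 0.051). TPhP libraries were all below control, with a ratio of means of 0.887 (log2 difference -0.17, SE 0.051). Per unit of Eln, Lox was at 20.9 ± 1.03 in TPhP, 27.4 ± 3.8 in DPhP and 23.1 ± 0.911 in control libraries (SD, n = 3 each), where the DPhP and control ranges overlapped.

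**Figure D3:**
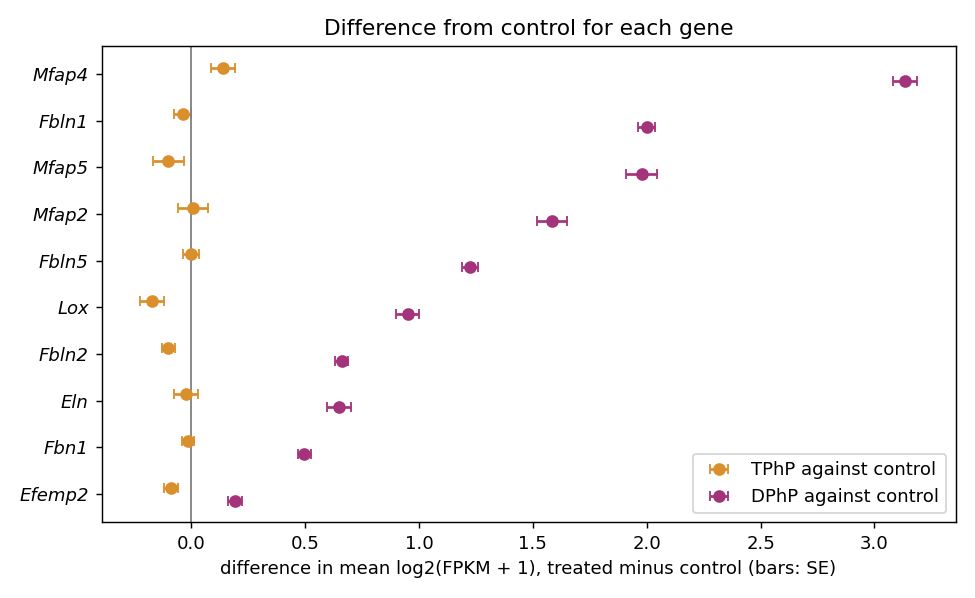
Difference in mean log2(FPKM + 1) from control for TPhP and DPhP libraries, per gene (points) with the standard error of the model (bars). The DPhP points run from 0.19 for Efemp2 to 3.13 for Mfap4, and the TPhP points from -0.17 for Lox to 0.14 for Mfap4.

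Over the 10 genes, the median log2 difference of DPhP against control was 1.09, beside -0.02 over all 12369 tested genes. All 10 were called higher in limma at an adjusted p under 0.05 over all tested genes, and in all 10 the DPhP and control groups did not overlap. Of all tested genes 33.1% were called higher with DPhP and 37.9% lower, and 34.3% were higher without overlap. Since measured values entered the choice of the genes, nothing is read from that count. Rescaling each library to a common sum of FPKM turned the numbers of all genes called higher and lower with DPhP, 4089 and 4693, into 5216 and 3728. The differences of the 10 genes were above 0 under each of the 19 alternative settings, several of which cannot change a difference. In the same libraries the summed smooth muscle, Sertoli, endothelial, pericyte and macrophage markers and 3 collagen genes were higher than in control libraries. The sum of the other 8 fibroblast markers overlapped with control, and the sums of Leydig and germ cell markers were lower. These sums are given with the marker lists, and their part in the result was not tested. Genes with low control levels tended to have larger DPhP differences, with Eln, low in both groups, as the exception. Spearman's rho between the control level and the DPhP difference was -0.56 over the 10 genes and -0.77 over the other 9 without Eln, as a description of genes measured in the same libraries. The control level is also subtracted in the DPhP difference, which by itself favours a negative rho. Eln was left out as the exception in these same values, so the rho without it is no support.

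For TPhP against control, the median over the 10 genes was -0.03, beside 0.01 over all tested genes, and 8 of the 10 differences were below 0, although those of Mfap2, Fbln5, Eln and Fbn1 changed sign under at least 1 alternative setting. None of the 10 was called, where 2.58% of all tested genes were called higher and 3.64% lower. The groups did not overlap for Mfap4, which was higher, and for Fbln2, Efemp2 and Lox, which were lower. That is 1 higher and 3 lower of 10, beside 15.1% of tested genes higher and 12.2% lower without overlap. Lox was called lower when the 6 libraries of the 2 groups were fitted alone, and without DPhP replicate 1 or 2. Fbln2 was called lower without TPhP replicate 3. With a common sum of FPKM, the numbers of all genes called higher and lower with TPhP, 319 and 450, became 429 and 358.

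TPhP and DPhP differ in structure by 1 phenyl ester, but their doses and times are not given, so the values stand side by side with no statement on potency. The log2 difference of TPhP against DPhP ran from -2.99 for Mfap4 to -0.28 for Efemp2 and was below 0 for all 10 genes. All 10 were called lower, where 37.8% of all tested genes were called higher and 30.9% lower, and as above nothing is read from that count. With a common sum the numbers of all genes called, 4672 higher and 3823 lower, became 3800 and 4770. The 3 control libraries serve in the TPhP and in the DPhP comparison alike.

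The 10 genes were set beside 70 genes, sorted by role, of which 58 passed the filter. All but 4 were listed as working with elastic fibres, and those 4 were listed for sharing the Mfap symbol. With DPhP 33 of the 58 were called higher and 17 lower, with a median log2 difference of 0.21, and 8 did not pass. With TPhP 4 were called higher and 11 lower, and 43 did not pass (median log2 difference -0.005). These calls used p-values adjusted over all tested genes, and the shares over all tested genes are those given above. The lists were chosen with earlier results of these data known, and the genes named below mostly for their small p. Their calls and p-values are therefore no independent support. The count for TPhP was 9 in all when the 6 libraries were fitted alone, and 7 to 9 without control replicate 1, 2 or 3 or without TPhP replicate 1 or 2.

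Of 9 tested relatives of the microfibril, 6 rose and 3 fell with DPhP, and 1 rose and 2 fell with TPhP. Ltbp2 encodes a relative of the latent TGF-β binding proteins that binds fibrillin and fibulin-5 and, despite its name, does not bind latent TGF-β. It had 6.51, 5.77 and 6.28 FPKM in TPhP libraries, 28.40, 27.40 and 28.65 FPKM in DPhP libraries and 6.59, 6.27 and 6.36 FPKM in control libraries. It rose with DPhP by a log2 difference of 1.98 (SE 0.045, adjusted p = 1.07e-11). Fbn2, fibrillin-2, averaged 4.61 ± 0.145 FPKM in TPhP, 13.3 ± 0.416 FPKM in DPhP and 5.57 ± 0.452 FPKM in control libraries (SD, n = 3 each). It rose with DPhP by 1.12 (adjusted p = 5.26e-09) and was called lower with TPhP (log2 difference -0.23, adjusted p = 0.0319). The TPhP call of Fbn2 ended under 8 of the 19 alternatives, among them the 6 libraries alone (adjusted p = 0.0679) and leaving out TPhP replicate 1, 2 or 3 or control replicate 1 or 3 (0.0612 to 0.109). Ltbp1 and Ltbp4, which do bind latent TGF-β to the matrix, rose with DPhP by 0.85 and 0.39 (adjusted p = 9.03e-09 and 1.15e-06).

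Of 5 tested relatives of the fibulins and emilins, 4 rose and 1 fell with DPhP, and none rose and 2 fell with TPhP. Hmcn1, hemicentin-1, a very large fibulin-related protein, averaged 2.56 ± 0.026 FPKM in TPhP, 14.5 ± 0.588 FPKM in DPhP and 2.39 ± 0.076 FPKM in control libraries, and rose with DPhP by a log2 difference of 2.19 (adjusted p = 6.8e-12). Emilin2 and Emilin1, glycoproteins found where elastin meets microfibrils, rose with DPhP by 1.62 and 0.40 (adjusted p = 3.95e-12 and 2.1e-07). Emilin1 fell with TPhP by 0.14 on the log2 scale (adjusted p = 0.0147), and this call ended without TPhP replicate 2 or control replicate 1 (0.0632 and 0.0607). Efemp1, fibulin-3, a close relative of Efemp2, averaged 136 ± 2.72 FPKM in TPhP, 143 ± 4.51 FPKM in DPhP and 152 ± 1.47 FPKM in control libraries. It fell with TPhP by 0.16 on the log2 scale (adjusted p = 0.00547). With DPhP its log2 difference was -0.09 (adjusted p = 0.0168), which was lost with a common sum (0.954) or median-of-ratios scaling (0.0926), turned to 0.04 with quantile normalization (0.166), and was lost without DPhP replicate 2 (0.0663) or control replicate 1 (0.0504).

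Of 7 tested cross-linking enzymes and activators, 5 rose and 2 fell with DPhP, and 2 fell with TPhP. Loxl1, a lysyl oxidase relative that acts on elastin, averaged 30.7 ± 1.15 FPKM in TPhP, 48.2 ± 0.835 FPKM in DPhP and 31.6 ± 0.670 FPKM in control libraries (DPhP log2 difference 0.59, adjusted p = 1.91e-08). Loxl2, a relative known for cross-linking collagen IV, went the other way, with 181 ± 3.59, 136 ± 0.792 and 185 ± 1.35 FPKM in TPhP, DPhP and control libraries (DPhP log2 difference -0.44, adjusted p = 1.25e-08). Tgm2, transglutaminase 2, which joins glutamine to lysine in matrix proteins, averaged 9.15 ± 0.712 FPKM in TPhP, 30.6 ± 0.240 FPKM in DPhP and 12.2 ± 0.780 FPKM in control libraries. It rose with DPhP by 1.26 (adjusted p = 2.04e-09) and fell with TPhP by 0.38 on the log2 scale (adjusted p = 0.00145). Bmp1, the protease that activates pro-lysyl oxidase, rose with DPhP by 0.36 (adjusted p = 2.26e-07).

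Of 10 tested proteases and protease inhibitors, 5 rose and 4 fell with DPhP, and 1 fell with TPhP. Ctsk, cathepsin K, an elastin- and collagen-degrading cysteine protease, had 0.46, 0.43 and 0.32 FPKM in TPhP libraries, 71.68, 72.92 and 71.84 FPKM in DPhP libraries and 0.39, 0.42 and 0.36 FPKM in control libraries. It stayed under 1 FPKM in every TPhP and control library and differed by 5.72 on the log2 scale between DPhP and control. It reached the filter on low values only in DPhP libraries, so it could be tested only because it was high there, and its call among the 5, and among the 33 above, is no independent support. Mmp12, macrophage elastase, moved the opposite way, with 828 ± 12.3, 418 ± 4.32 and 844 ± 23.1 FPKM in TPhP, DPhP and control libraries (DPhP log2 difference -1.01, adjusted p = 3.1e-11). The inhibitors Cst3 (cystatin C, which blocks cathepsins) and Timp2 (which blocks metalloproteinases) fell with DPhP by 0.83 and 0.56 on the log2 scale (adjusted p = 1.23e-09 and 1.49e-09). Timp3, named after its values were seen, rose with DPhP by 1.11 (adjusted p = 1.68e-09).

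Of 10 tested receptors of elastic fibre proteins, 3 rose and 4 fell with DPhP, and 1 rose with TPhP. The integrin gene Itgb1 rose with DPhP by 0.29 (adjusted p = 1.52e-06), and Itga8, its partner in the α8β1 integrin, fell by 1.01 on the log2 scale (adjusted p = 1.61e-07), to 1.17 ± 0.217 FPKM in DPhP libraries, against 3.36 ± 0.0755 FPKM in control. Neu1 and Ctsa, lysosomal proteins that also form the elastin receptor complex, fell with DPhP by 0.65 and 0.25 (adjusted p = 2.48e-07 and 3.67e-06).

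Of 13 genes of the TGF-β axis, which in many cells induces elastin, fibrillin and lysyl oxidase, 8 rose and 3 fell with DPhP, and 2 rose and 4 fell with TPhP. The ligand Tgfb2 and the receptor Tgfbr2 rose with DPhP by 0.47 and 0.61 (adjusted p = 4.62e-06 and 3.89e-09), as did the target Ccn2 (0.35, adjusted p = 1.58e-05). Tgfbi, another TGF-β target, fell with DPhP by 0.45 on the log2 scale and rose with TPhP by 0.30 (adjusted p = 1.84e-06 and 0.00137), and Tgfb2 fell with TPhP by 0.37 (adjusted p = 0.00109). Tgfbr2 was called lower with TPhP as well (log2 difference -0.12, adjusted p = 0.032), a call that ended under 8 of the 19 alternatives, among them the common sum (0.0643), the 6 libraries alone (0.0581) and leaving out TPhP replicate 1 or 2 or any 1 control library (0.0769 to 0.110).

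Mfap1a, Mfap1b, Mfap3 and Mfap3l were listed only for sharing the Mfap symbol. With DPhP 2 of 4 rose and none fell, and none was called with TPhP. Mfap3l rose with DPhP by 0.66 (adjusted p = 7.6e-06). Mfap1a, a splicing factor gene with a near-identical copy, Mfap1b, between which reads may be split, rose with DPhP by 0.16 (adjusted p = 0.0165), a call that ended without DPhP replicate 1 or control replicate 2 (0.0739 and 0.0731).

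**Figure D4:**
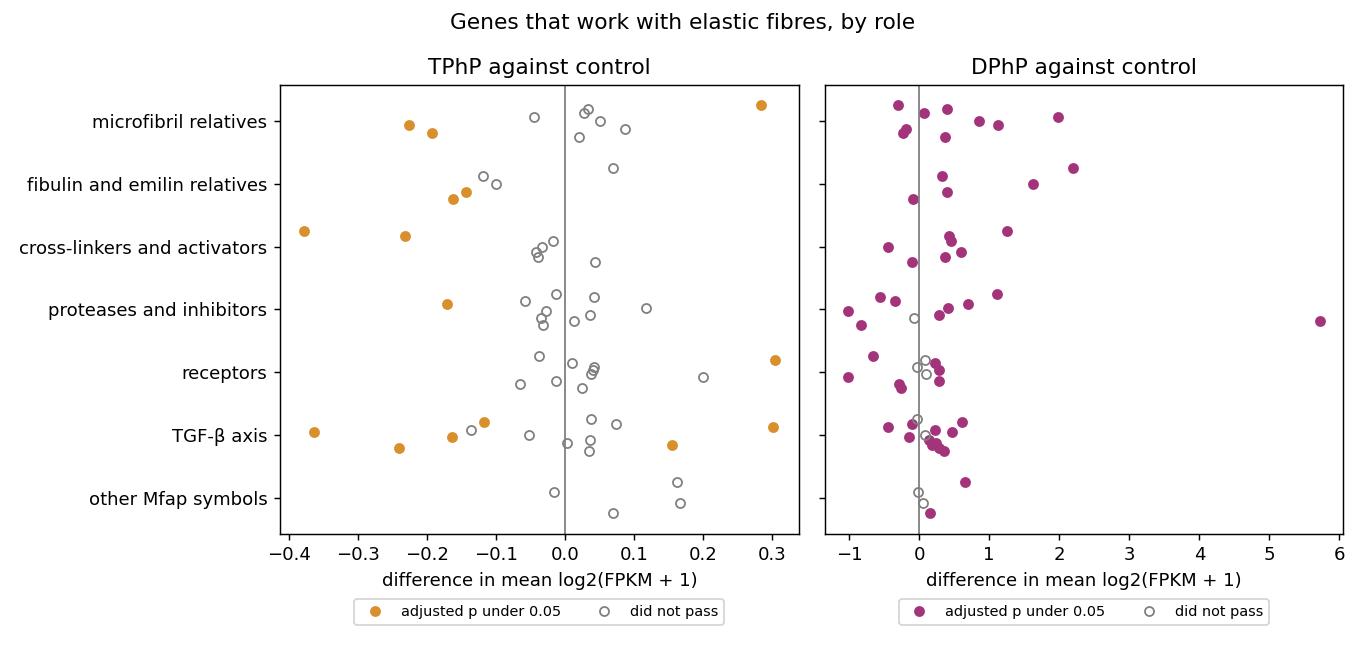
Difference in mean log2(FPKM + 1) from control of 58 tested partner genes, by role, for TPhP (left) and DPhP (right). The 58 include 4 genes listed for sharing the Mfap symbol. The x axes differ in range. Filled points passed an adjusted p under 0.05 over all tested genes. The point furthest right is Ctsk, at 5.72, which reached the filter only in DPhP libraries.

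The genes whose profiles were most like those of the 3 most variable members were found by the Euclidean distance between log2(FPKM + 1) profiles over the 9 libraries, each centred on its mean. These profiles are set mainly by the gap between DPhP libraries and the other 6. Nearest to Fbln1 was Ltbp2 (distance 0.063, Pearson r 0.9998), then Trim12c and Pmepa1 (distances 0.14 and 0.15). Nearest to Mfap4 were Sfrp1, a secreted Wnt antagonist (0.24), Emb (0.29) and Mdk (0.53). Nearest to Mfap5 were Actg2, smooth muscle γ-actin and 1 of the myoid markers below (0.26), Has2, a hyaluronan synthase (0.27), and Lrrc17 (0.28). Has2 was at 0.08 to 0.19 FPKM in TPhP and control libraries and at 3.14 to 3.55 FPKM in DPhP libraries. It reached the filter on low values only in DPhP libraries. The pseudocount of 1 understates its change, so its place near Mfap5 depends on that scale.

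Markers of other cells that a testis preparation can hold also differed between DPhP and control libraries. The counts of each marker list stand beside 33.1% of all tested genes called higher and 37.9% called lower with DPhP. With TPhP those shares were 2.58% and 3.64%. The marker lists too were chosen with earlier results of these data known. All 9 markers of peritubular myoid and smooth muscle cells were called higher with DPhP and none passed with TPhP. Des, 1 of the 9, reached the filter only in DPhP libraries, which favoured its call. Their summed level was 896 to 939 FPKM in TPhP, 1988 to 2050 FPKM in DPhP and 883 to 991 FPKM in control libraries. Acta2, smooth muscle α-actin, averaged 342 ± 6.22, 923 ± 25.3 and 350 ± 22.5 FPKM in TPhP, DPhP and control libraries, while Myh11, smooth muscle myosin heavy chain, was at 1.23 ± 0.104, 4.41 ± 0.259 and 1.15 ± 0.140 FPKM. Of 11 stromal fibroblast markers 8 rose and 2 fell with DPhP, and 1 rose and 4 fell with TPhP, with sums of 4003 to 4115 FPKM in TPhP, 7281 to 7435 FPKM in DPhP and 4376 to 4420 FPKM in control libraries. The collagen genes Col1a1, Col1a2 and Col3a1 made most of that difference, with 2862 to 3010 FPKM in TPhP, 6010 to 6197 FPKM in DPhP and 3143 to 3196 FPKM in control libraries. The other 8 fibroblast markers summed to 1106 to 1141 FPKM in TPhP, 1231 to 1271 FPKM in DPhP and 1203 to 1244 FPKM in control libraries, so DPhP and control overlapped. Of these, Cd34 and Ly6a were the 2 that fell with DPhP, to 73.1 and 68.0 FPKM, against 129 and 158 FPKM in control libraries.

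Sertoli cell markers summed to 17.1 to 17.6 FPKM in TPhP, 57.3 to 61.1 FPKM in DPhP and 19.2 to 20.7 FPKM in control libraries, with 4 of 8 tested. These 4 were called higher with DPhP, among them Dhh, which reached the filter only there, and 1 fell with TPhP. Cldn11 and Wt1 made most of the sum, at 5.88 and 7.47 FPKM in TPhP, 27.7 and 21.4 FPKM in DPhP and 6.04 and 9.88 FPKM in control libraries. The untested Rhox5 and Gata1 were lower in DPhP (0.047 and 0.857 FPKM) than in control libraries (0.207 and 0.977 FPKM). Amh and Fshr, also untested, averaged 0.360 and 0.163 FPKM in DPhP and 0.150 and 0.050 FPKM in control libraries. The sums were 11.9 to 12.6, 31.3 to 32.3 and 11.2 to 12.1 FPKM for 5 endothelial markers and 7.41 to 7.59, 13.0 to 13.8 and 7.36 to 7.45 FPKM for 4 pericyte markers, of which Rgs5 was near 0. Cdh5 alone made 9.75 to 10.51, 28.8 to 29.8 and 9.27 to 10.2 FPKM of the endothelial sum. Pecam1, Tek and Vwf averaged under 1 FPKM in every group, and Tek and Vwf were no higher in DPhP (0.543 and 0.580 FPKM) than in control libraries (0.580 and 0.717 FPKM). Cdh5 rose with DPhP, and Kdr was called higher but reached the filter only in DPhP libraries. All 3 tested pericyte markers rose with DPhP, and no endothelial or pericyte marker passed with TPhP. Macrophage markers summed to 1182 to 1201, 1616 to 1731 and 1232 to 1254 FPKM, and germ cell markers to 14.9 to 21.6, 3.77 to 4.0 and 17.8 to 24.3 FPKM, with Tnp1 at 0 in all DPhP libraries. With DPhP 4 of 6 tested macrophage markers rose and 1 fell, and 4 of 5 germ cell markers were called lower. With TPhP 2 of each were called lower. Lyz2 made most of the macrophage sum, with 1012, 1499 and 1063 FPKM on average in TPhP, DPhP and control libraries. Csf1r was the macrophage marker that fell with DPhP, with 27.0, 23.2 and 31.5 FPKM in the same order. Cd68 did not pass with DPhP, with 121, 122 and 118 FPKM. Ddx4, a germ cell marker, reached the filter only in control libraries, which favoured its calls. The part of these cell types in the levels of the 10 genes was not tested.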

How the data were processed

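The authors deposited 1 table of FPKM values to 2 decimals, with a column for each of the 9 libraries. The labels describe extraction with Trizol, mRNA enrichment on oligo(dT) beads, fragmentation and adaptor ligation, and the build was GRCm38.p6 per the submitters' processing notes. The aligner, counting tool, annotation, strandedness and depth were not given in the sources used here. In every library the smallest value above 0 was 0.01, and as the transcript lengths used are unknown, no depth or counting interval was derived.

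FPKM are not counts, so log2(FPKM + 1) was fitted in limma 3.58.1 (R 4.3.3) with a mean per group over all 9 libraries and an intensity trend. Genes reaching 1 FPKM in 3 or more libraries (12369) were tested, two-sided, with Benjamini-Hochberg adjustment over all of them, and called at an adjusted p under 0.05. The pseudocount of 1 understates changes of low genes. The fit was checked on simulated data. The 10 members and all lists were chosen with earlier results of these data known. Of each list of partner genes, up to 4 called genes with the smallest p against control were named. Symbols with a Gm number, a Rik name or LOC were left out of the search for like profiles. Structure came from GENCODE M21, positions and promoters from RefSeq. Tables and plots were made with pandas 2.3.3, numpy 2.4.6 and matplotlib 3.10.9 under Python 3.11.15. Alternatives are given in the closing section.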

Additional observations from a re-analysis of the deposited data

How the results depend on the processing

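Each of 19 alternatives changed 1 choice: the pseudocount (0.1 or 0.5), the filter (none, or a mean FPKM of 5 or more), the scaling (a common sum of FPKM, median-of-ratios size factors or quantile normalization), the trend (none), a replicate block, a fit to the 6 libraries compared, and leaving out each of the 9 libraries. Of 570 recomputed differences of the 10 genes, 534 moved by less than the spread between replicates, 36 moved by more, and no called one changed sign. The filters, the trend, the replicate block, the 6 libraries alone and a left-out library of the third group cannot change a difference. Such unchanged values are counted among the 534. Since the values of the 10 genes were known when they were chosen, these numbers are no independent support.

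The number of genes changed by TPhP was 769 and ran from 413 to 775 with 1 library left out. It was 436, 413, 504 and 444 without TPhP replicate 1, TPhP replicate 2, control replicate 1 and control replicate 2. Of the 10 genes 0 were called with TPhP, 1 (Lox) with a replicate block or with the 6 libraries alone, and 0 to 1 with 1 library left out. The cause was not tested. In that comparison 2705 of the 12369 tested genes had an unadjusted p under 0.05. Of the 70 partner genes 15 were called with TPhP, 9 with the 6 libraries alone and 7 to 13 with 1 library left out. The log2 difference of Efemp1 for DPhP turned to 0.0445 with quantile normalization. Of 984 recomputed values of named partner genes, 24 lost their call and that 1 changed direction. The 984 take in both comparisons with control, and values of genes not called in the main fit could not lose a call. The calls lost with TPhP were those of Fbn2, Emilin1 and Tgfbr2, and with DPhP those of Efemp1 and Mfap1a.

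Same-numbered libraries of different groups had correlations of their deviations from the group means between -0.121 and 0.104, so no strong shared shift was seen. These correlations cannot show whether same-numbered libraries were prepared together. With the replicate block 663 genes were changed by TPhP, 8711 by DPhP and 8458 between TPhP and DPhP. Depth is unknown, so counting error could not be set beside the values.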
